A study of Mus musculus with 12 samples.

Results

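Matrix metalloproteases (MMPs), the related ADAMTS proteases and the tissue inhibitors of metalloproteases (TIMPs) decide how fast collagens, proteoglycans and other proteins outside the cell are cut. The 9 genes described here are Mmp2, Mmp14, Mmp15, Mmp19, Timp1, Timp2, Timp3, Adamts1 and Adamts9. They were taken by symbol from the 21705 genes of the deposited liver table, and all 9 symbols were found. No measured value was used to pick them, although the list was put together after earlier results of the same data were known. Of the 9 genes, 8 had a mean value of at least 10 over the livers and were tested, and Timp1 did not.

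The study asked what happens in the liver when the microRNA miR-29 is inhibited. Messenger RNA was sequenced from 12 livers of female C57BL/6J mice of 10 to 12 weeks. In the saline group, 6 mice were injected with saline through the tail vein, and in the LNA29 group 6 mice received locked nucleic acids, which are short modified oligonucleotides that bind a microRNA, against miR-29a and miR-29bc at 20 mg/kg each. Both groups fasted for 18 h before their livers were taken on day 7. No library from mice given an LNA of another sequence was analysed here, so that in these libraries an effect of miR-29 inhibition and an effect of receiving an LNA cannot be told apart. The study also gave other mice an LNA against a different microRNA. It reported no significant change of the collagen genes Col1a1 and Col3a1 in their livers by RT-qPCR.

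As background, MMPs are made as inactive precursors. The membrane-type enzyme MMP14 binds TIMP2 at the cell surface and uses it to capture and cut the precursor of MMP2, so that TIMP2 can help to activate MMP2 as well as inhibit it. TIMPs block active MMPs one to one, and TIMP3, which is bound to the matrix, also blocks several ADAMTS proteases. In the liver most MMPs and TIMPs are made by stellate cells, endothelial cells and macrophages rather than by hepatocytes, and their balance is known for its part in the build-up and removal of scar tissue.

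The sequences of miR-29 and of the matches to it in these genes are shown because LNA29 was made to bind miR-29. The mature forms in RefSeq (GRCm38.p6) share the seed in capitals, which is bases 2 to 8, and miR-29b is made from 2 loci.
mmu-miR-29a-3p: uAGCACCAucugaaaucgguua
mmu-miR-29b-3p: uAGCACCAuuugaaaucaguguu
mmu-miR-29c-3p: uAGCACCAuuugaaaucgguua
The complement of this seed, TGGTGCT, was searched on the strand of the transcript in the longest 3′ UTR of each gene in GENCODE release M21 (GRCm38), where 2755 of 21022 genes (13.1%) hold it. Of the 9 genes, 2 (22.2%) hold 1 match each, and Mmp14, Mmp15, Mmp19, Timp1, Timp2, Timp3 and Adamts1 hold none. Both matches are shown on the strand of the transcript with the 7 matching bases in capitals.
Mmp2: tcctctgggctgcccTGGTGCTccactc
Adamts9: agaattgtgctgcctTGGTGCTaatatt
The Mmp2 match is at chr8:92852923-92852929 on the plus strand, in exon 13 of 13 and in a 3′ UTR of 755 bases. The Adamts9 match is at chr6:92773490-92773496 on the minus strand, in exon 40 of 40 and in a 3′ UTR of 1883 bases. It is followed by an A, which makes it an 8-mer match, a form held by 599 genes (2.85%), whereas the Mmp2 match is not followed by an A. A share of 7.70% (312 of 4052) of genes with a 3′ UTR of 500 to 1000 bases held a match, and of those with 1000 to 2000 bases 13.2% did (642 of 4866). Only matches to all 7 bases were searched, so that a gene listed here without a match can still hold a shorter one. A match of letters is a description and does not show binding.

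Reads on genes numbered from 8217209 to 19062395 in the saline group and from 7696088 to 15079202 in the LNA29 group. Values are RSEM read estimates that were scaled so that the upper quartile of genes with reads was 1000 in a liver, and 1 read was worth between 9.80 and 24.4 in this unit. A gene without reads is listed at 1. Albumin took 35.7% of the reads in saline replicate 49 and between 43.6% and 46.9% in the other livers. Marker genes of hepatocytes dominated every library, and their summed values ranged from 31905200 to 108567000 in the saline group and from 78827600 to 93529400 in the LNA29 group. All labels name the tissue as liver.

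Of the proteases, Mmp2 had a higher level in LNA29 livers, 2.30 times the saline mean, and Mmp15 a lower one, 0.707 times the saline mean. Both passed a test as single genes and neither passed it after adjustment over all genes. Mmp14, which had the highest mean value of the 9 genes, and the inhibitor Timp2 had nearly the same mean in both groups. No difference was detectable for Mmp14, Timp2 or Adamts1. Mmp19 and Timp3 shared reads with overlapping genes, Adamts9 had too few reads to compare, and Timp1 had no read in any liver.

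Across the 12486 genes tested with limma on log2(value + 1), 20 genes (0.16%) had a Benjamini-Hochberg adjusted p under 0.05, and none of the 9 genes was among them. With edgeR on recovered reads 17 genes (0.136%) and with DESeq2 72 of 8848 (0.814%) did, none of them a member, although DESeq2 gave no adjusted p for Mmp2 and Adamts9. At an unadjusted p under 0.05, 988 genes (7.91%) passed, 243 higher (1.95%) and 745 lower (5.97%) in LNA29 livers. Of the 8 genes tested, 2 passed this unadjusted threshold: Mmp2, which was higher, and Mmp15, which was lower in LNA29 livers. With edgeR 872 genes (6.98%) and with DESeq2 789 of 12476 (6.32%) passed at an unadjusted p under 0.05, Mmp2 and Mmp15 again being the 2 members. For no member did the 6 livers of one group lie wholly above those of the other, which was the case for 123 of the genes tested (0.985%). The median log2 fold change of all genes tested was -0.09, and that of the 7 members with more than 3 reads in some liver was 0.00.

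**Figure D1:**
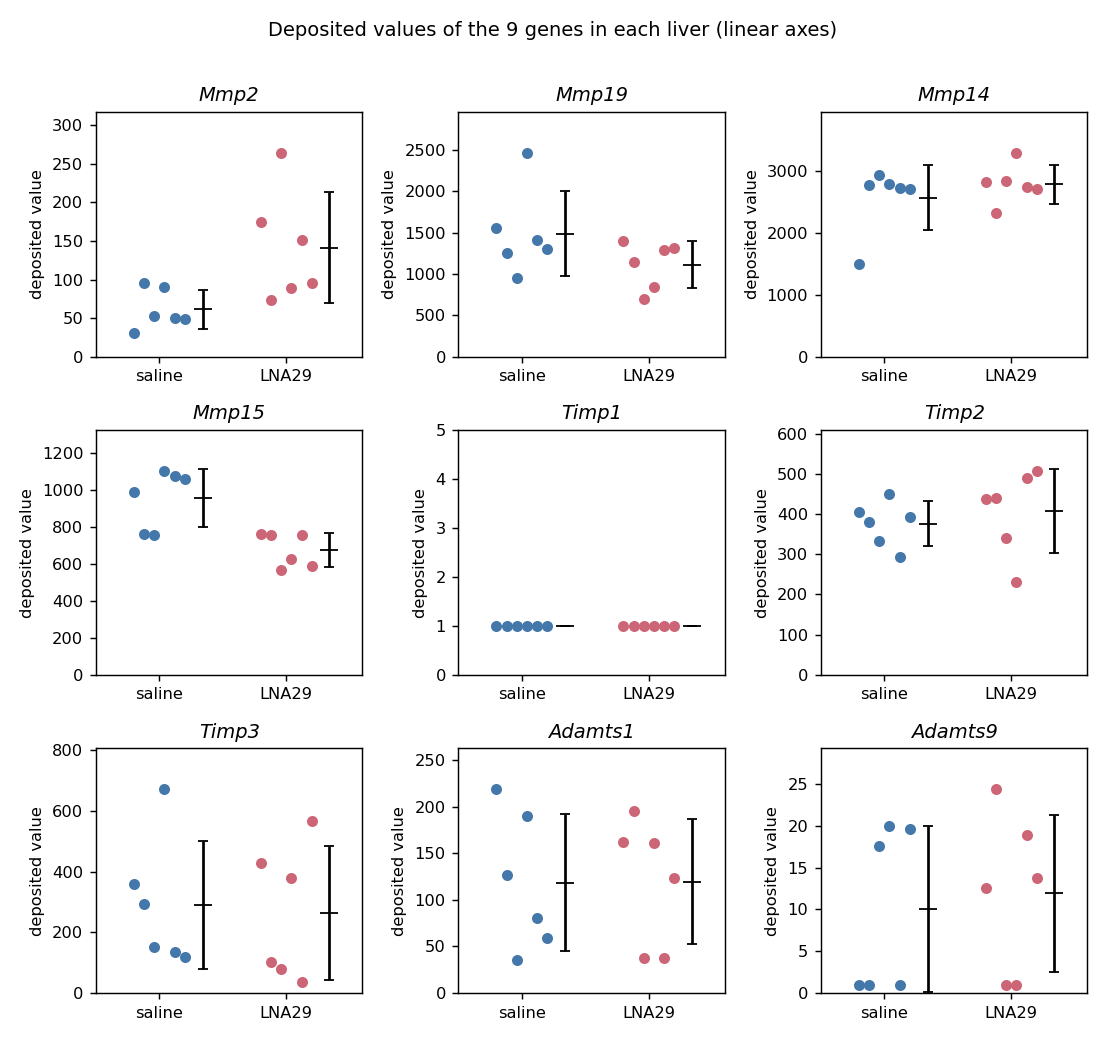
Deposited values (upper quartile 1000, linear axis from 0) of the 9 genes in 6 saline and 6 LNA29 livers, with 1 point per liver and the group mean ± SD at the side. Mmp2 points range from 31.3 to 95.2 in the saline group and from 73.2 to 264 in the LNA29 group, Mmp15 points lie lower in LNA29 livers, and Timp1 is at 1, which stands for no reads, in all 12.

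Mmp2 encodes gelatinase A, which cuts denatured collagens and collagen IV of basement membranes. Its values in saline livers were 31.3 at the lowest, 51.6 at the median and 95.2 at the highest, and in LNA29 livers they were 73.2, 123 and 264. All 6 LNA29 livers lay above the saline median and 4 of them lay above the highest saline liver, but saline replicates 45 and 49 overlapped with the lowest LNA29 livers. These values rest on few reads, from 2 to 9 in a saline liver (30 in all) and from 3 to 14 in an LNA29 liver (51 in all). The mean was 61.4 ± 25.4 in saline livers and 141 ± 71.7 in LNA29 livers (SD, n = 6 each), a ratio of 2.30. The log2 fold change was 1.15 ± 0.41 (SE, the standard error of the fit, 95% interval 0.28 to 2.01, limma p = 0.0125, adjusted p = 0.427), and a two-sided exact permutation test over the 924 divisions of the livers gave p = 0.0173. Mmp2 therefore passed the test as a single gene and did not pass it after the adjustment over all genes. The count tests gave a log2 fold change of 1.26 with edgeR (adjusted p = 0.301) and of 1.29 with DESeq2, which gave no adjusted p for a gene of so low a mean. Mmp2 is at chr8:92827291-92853420 (plus strand, GRCm38), with no other annotated gene overlapping it, and its UTR match to the miR-29 seed is the sequence shown above.

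Mmp19 encodes a secreted MMP that cuts basement membrane proteins. Its values were 947 at the lowest, 1357 at the median and 2464 at the highest in saline livers and 703, 1213 and 1402 in LNA29 livers. The groups overlapped widely, with 3 saline livers above the highest LNA29 liver and 2 LNA29 livers below the lowest saline liver. The log2 fold change was -0.40 ± 0.22 (SE, limma p = 0.0925, adjusted p = 0.72, exact permutation p = 0.141), and it did not pass the test. Mmp19 lies at chr10:128790910-128800824 (plus strand, GRCm38), where it overlaps with Tmem198b on the opposite strand, and the split of reads between both genes bears on this value, as described further on.

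The membrane-type MMPs had the highest values per length together with Mmp19, whose value depends on the split of reads with Tmem198b. Mmp14 encodes MT1-MMP, the collagenase that activates MMP2 at the cell surface. Saline livers had 1500 at the lowest, 2740 at the median and 2930 at the highest, and LNA29 livers 2317, 2774 and 3286. All saline livers but replicate 43 lay close together between 2706 and 2930, within the range of the LNA29 livers. The mean was 2567 ± 529 in saline and 2780 ± 311 in LNA29 livers (SD, n = 6 each), with a log2 fold change of 0.14 ± 0.16 (SE, 95% interval -0.20 to 0.49, exact permutation p = 0.556, limma adjusted p = 0.893). Without saline replicate 43 the log2 fold change was -0.01. No difference was detectable for Mmp14, on 95 to 279 reads per liver. Mmp14 is at chr14:54431612-54445364 (plus strand, GRCm38) with no overlapping gene.

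Mmp15 encodes MT2-MMP, another membrane-bound activator of MMP2 precursor. Saline livers had 754 at the lowest, 1022 at the median and 1100 at the highest, and LNA29 livers 566, 690 and 763. All 6 LNA29 livers lay below the saline median, and 4 saline livers lay above the highest LNA29 liver, whereas saline replicates 45 and 47, at 762 and 754, lay among the higher LNA29 livers. The mean was 955 ± 157 in saline and 676 ± 92.0 in LNA29 livers (SD, n = 6 each), a ratio of 0.707. Between 30 and 110 reads stood behind a value. On the log2 scale the fold change was -0.49 ± 0.17 (SE, 95% interval -0.84 to -0.14, limma p = 0.00851, adjusted p = 0.377, exact permutation p = 0.0152). After a shift of all livers to a common median, which moved the median of all genes from -0.09 to -0.03, it was -0.43 (limma adjusted p = 0.53). Mmp15 is at chr8:95352268-95375080 (plus strand, GRCm38) with no overlapping gene, and on the same chromosome as Mmp2.

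Mmp2 and Mmp15 each kept their direction and an unadjusted p under 0.05 in all 11 other settings tried and when any one of the 12 livers was left out. Without 1 liver, the log2 fold change of Mmp2 was between 0.94 and 1.31 and that of Mmp15 between -0.56 and -0.44. None of these fits gave either gene an adjusted p under 0.05.

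**Figure D2:**
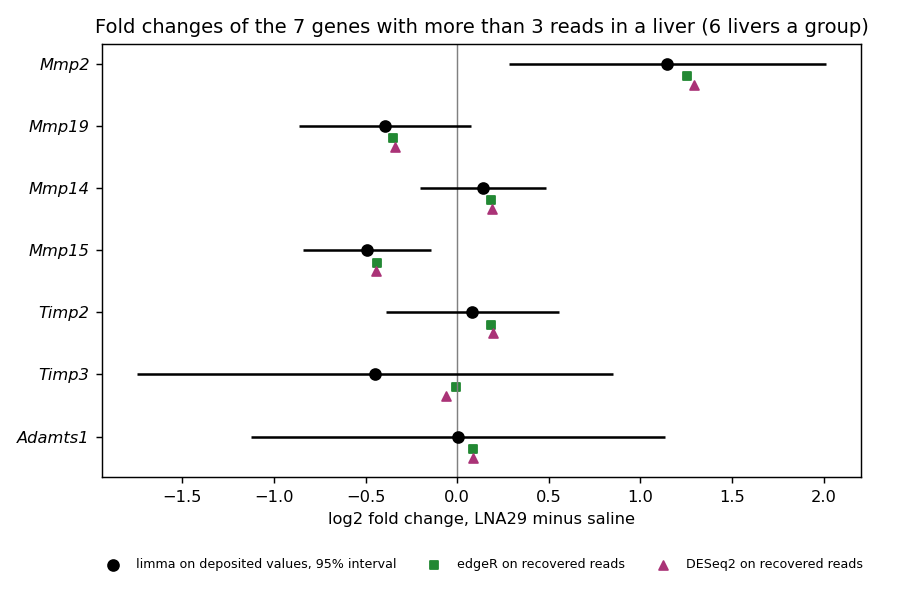
Log2 fold change (LNA29 minus saline, horizontal axis) of the 7 genes with more than 3 reads in some liver, from limma with its 95% interval (black) and from edgeR and DESeq2 on recovered reads (coloured marks). The intervals of Mmp2 (0.28 to 2.01) and Mmp15 (-0.84 to -0.14) leave out 0, and those of the other 5 genes include it.

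Among the inhibitors, Timp1 was listed at 1, which stands for no reads, in all 12 livers. No read was assigned to it at this depth, where a count of 0 allows up to 3 assigned reads in a liver. It was not tested. Timp1, on chromosome X, overlaps with Syn1 on the opposite strand, and whether its reads were assigned to Syn1 was not tested. Timp1 is best known as a TIMP that rises in injured liver.

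Timp2 encodes the TIMP that takes part in MMP2 activation. Its values were 293 at the lowest, 387 at the median and 450 at the highest in saline livers and 232, 438 and 507 in LNA29 livers. The LNA29 livers spread to both sides of the saline range, with 2 above it and 1 below it. The mean was 376 ± 55.5 and 408 ± 104 (SD, n = 6 each), and the log2 fold change was 0.08 ± 0.22 (SE, 95% interval -0.39 to 0.55, exact permutation p = 0.697, limma adjusted p = 0.967). No difference was detectable, on 13 to 45 reads per liver. Timp2 is at chr11:118301069-118355740 (minus strand, GRCm38), where Cep295nl overlaps it on the same strand, and its recovered reads were whole in all 12 livers.

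Timp3 encodes the TIMP that binds to the matrix and also inhibits ADAMTS proteases. Its values in saline livers were 120 at the lowest, 222 at the median and 672 at the highest, and in LNA29 livers 35.3, 239 and 567. Values differed more between livers of one group than between the groups, and the log2 fold change of -0.45 ± 0.62 (SE, 95% interval -1.75 to 0.85, exact permutation p = 0.558, limma adjusted p = 0.92) had the widest interval of the inhibitors. Without LNA29 replicate 52 it was 0.00. Timp3 lies at chr10:86300372-86349506 (plus strand, GRCm38) and overlaps with Syn3, a synapsin gene on the opposite strand.

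Mmp19 and Timp3 shared reads with the gene on the other strand, and whether reads were counted by strand is not given in the sources used here. RSEM splits a read that fits several transcripts, and the recovered reads of Mmp19 and of Timp3 were fractional in 11 of 12 livers each, within a tolerance of 0.02. Summed with Tmem198b or with Syn3, they were whole in 12 of 12 livers. Mmp19 received from 22.3% to 73.8% of the shared sum in the saline group and from 18.5% to 62.3% in the LNA29 group, and Timp3 from 33.0% to 82.2% and from 8.90% to 79.6%. Values of these genes alone therefore depend on how reads were divided in each liver.

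The sum of Mmp19 and Tmem198b was 3267 ± 554 in saline livers, with 2641 at the lowest, and 2591 ± 630 in LNA29 livers (SD, n = 6 each). Of the LNA29 livers, replicates 48 and 52 lay within the saline range and the other 4 below it. The log2 fold change of the sum was -0.35 ± 0.16 (SE, limma p = 0.0448, adjusted p = 0.619, exact permutation p = 0.0433), so that it passed the unadjusted threshold that Mmp19 alone missed. Tmem198b alone had -0.28 ± 0.32 (SE, exact permutation p = 0.47). For Timp3 and Syn3 the sum was 449 ± 239 in saline and 515 ± 158 in LNA29 livers, and its log2 fold change of 0.30 ± 0.30 (SE, exact permutation p = 0.39, limma adjusted p = 0.874) had the opposite sign of that of Timp3 alone. Syn3 alone had 0.80 ± 0.44 (SE, exact permutation p = 0.139). No direction can be given for Timp3 from these values.

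**Figure D3:**
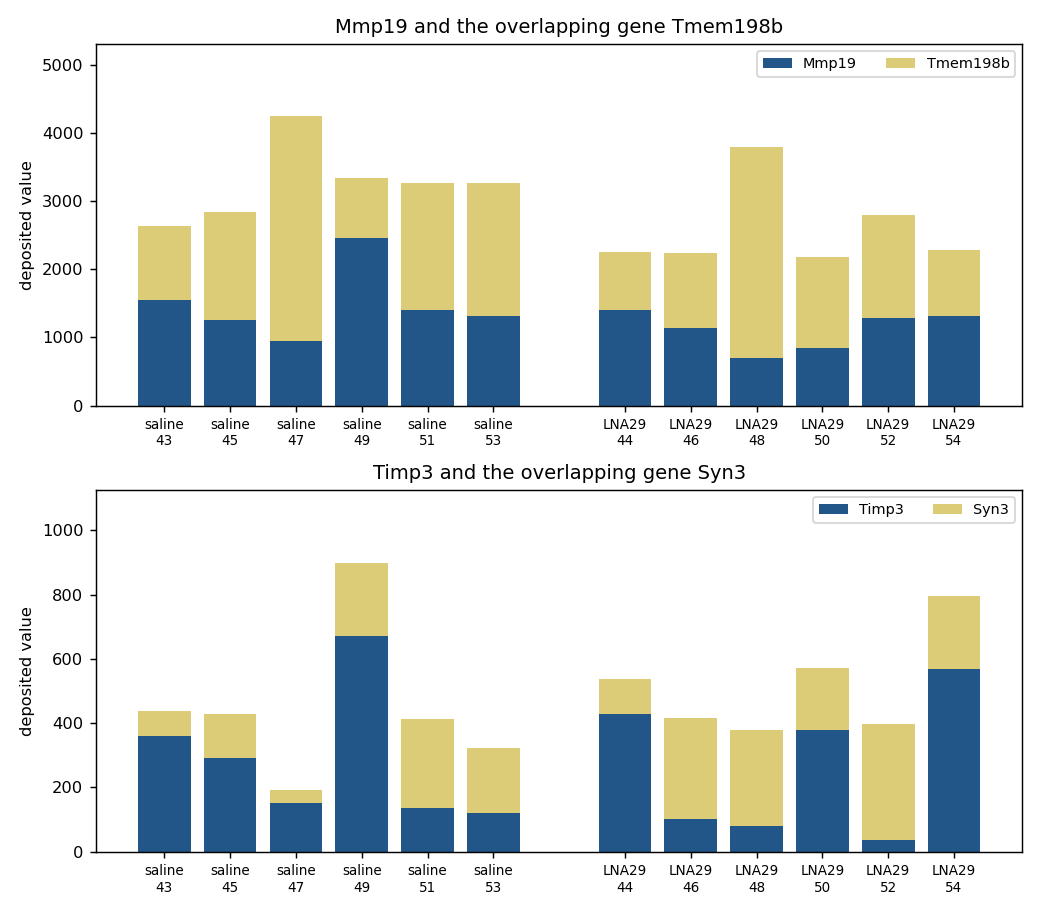
Deposited values of Mmp19 with Tmem198b (upper panel) and of Timp3 with Syn3 (lower panel) in each of the 12 livers, stacked so that the bar height is the sum, on linear axes from 0. The part of a bar taken by Mmp19 varies from 18.5% to 73.8% and that taken by Timp3 from 8.90% to 82.2%.

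The ADAMTS proteases cut proteoglycans such as versican and aggrecan. Adamts1 had 35.1 at the lowest, 104 at the median and 219 at the highest in saline livers and 37.7, 142 and 195 in LNA29 livers. The ranges were nearly the same, and with 2 to 19 reads in a liver Adamts1 had a log2 fold change of 0.00 ± 0.54 (SE, 95% interval -1.13 to 1.14, exact permutation p = 0.996, limma adjusted p = 0.998). This interval spans more than a doubling in either direction, so that the data limit the difference poorly. Adamts1 is at chr16:85793827-85803113 (minus strand, GRCm38) with no overlapping gene. Adamts9, which shares its type of substrates with Adamts1 and carries the 8-mer match, had 5 reads over the 6 saline livers and 4 over the 6 LNA29 livers. It had no read in 3 saline and 2 LNA29 livers and at most 2 in any liver. Both groups were under the floor of 3 reads per liver, so that no fold change is given.

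The levels of the 9 genes were compared per kilobase of the longest coding transcript in GENCODE M21. In saline livers the means of the value per kb were 793 ± 163 for Mmp14, 438 ± 152 for Mmp19, 186 ± 30.6 for Mmp15, 101.4 ± 14.96 for Timp2, 61.1 ± 44.7 for Timp3, 24.2 ± 15.1 for Adamts1, 20.0 ± 8.25 for Mmp2 and 1.19 ± 1.31 for Adamts9 (SD, n = 6 each), with Timp1 at 0. The ranges of the neighbours Mmp14 and Mmp19 overlapped, as did those of Timp2, Timp3, Adamts1 and Mmp2 from each to the next, whereas Mmp15 lay below the lowest Mmp19 value of 278 and above the highest Timp2 value of 121 per kb. Percentiles of saline levels per kb were taken among 12811 genes with a length and a saline mean above 1. Mmp14 stood at the 86.0 percentile, Mmp15 at 67.0 and Mmp2 at 31.7. By these values the membrane-type MMPs and Mmp19 had the highest levels per length among the 9 genes. The values of Mmp19 and Timp3 depend on how reads were divided with Tmem198b and Syn3, so that their places in this order are not fixed. In LNA29 livers Mmp2 had 45.9 ± 23.3 per kb, above Adamts1 at 24.5 ± 13.8.

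The relation of proteases to inhibitors was compared within each liver as a difference of log2(value + 1). The scaling of a library cancels from this difference except through the 1 that was added. Mmp2 minus Timp2 ranged from -3.66 to -1.99 in the saline group and from -2.57 to -0.36 in the LNA29 group, with means of -2.68 ± 0.58 and -1.62 ± 0.80 (SD, n = 6 each). The groups overlapped, and the difference of 1.06 had an exact permutation p of 0.0238 and an adjusted p of 0.0714 over the 3 pairs compared. With pseudocounts of 0.1 and 10 this difference was 1.08 and 0.95. Mmp14 minus Timp2 differed by 0.06 (exact permutation p = 0.855) and Mmp14 minus Timp3 by 0.59 (exact permutation p = 0.457), the last of which uses the divided reads of Timp3. These are ratios of messenger RNA and not of protein or activity.

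The other genes of these families were mostly scarce in the livers. Of 43 other MMP, ADAMTS, TIMP and ADAMTS-like genes listed, 13 had no read in any liver, among them Mmp1a, Mmp10 and Mmp13, and 18 passed the filter on the mean. None of these 18 had an adjusted p under 0.05. At an unadjusted p under 0.05, 0 were higher and 1 was lower, beside 1.95% and 5.97% of all genes. This gene was Adamts10, a protease that binds to fibrillin microfibrils, with 196 ± 52.1 in the saline and 120 ± 84.8 in the LNA29 group (SD, n = 6 each), or -0.89 ± 0.37 (SE) as log2 fold change (limma p = 0.0271, adjusted p = 0.529, exact permutation p = 0.0368). It missed the unadjusted threshold with edgeR (log2 fold change -0.68) and DESeq2 (-0.66), and without any one of saline replicate 49 and LNA29 replicates 44, 46, 52 and 54 (-0.80 to -0.77). Adamts10 holds 1 match to the miR-29 seed. The other ADAMTS genes with the highest means were Adamts13, the protease of von Willebrand factor made by stellate cells, with 314 ± 126 and 364 ± 83.5, and Adamts7 with 300 ± 194 and 214 ± 61.7, and neither passed the test (exact permutation p = 0.312 and p = 0.47).

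The MMPs with the highest means outside the 9 genes, Mmp17 and Mmp11, had at most 5 and 4 reads in a liver. Timp4, the other TIMP, had at most 1 read. Of the ADAMTS-like genes, which lack the protease domain, Adamtsl2 had 201 ± 71.4 and 220 ± 70.1 and Adamtsl4 190 ± 63.9 and 148 ± 48.9 (SD, n = 6 each), with exact permutation p of 0.643 and 0.236. A match to the miR-29 seed was held by 9 of the 17 other ADAMTS genes (52.9%) and by 2 of the 19 other MMP genes (10.5%). The 9 ADAMTS genes with a match had 3′ UTRs of 1050 to 3554 bases. Of all genes, 13.2% of those with 1000 to 2000 bases and 25.2% of those with 2000 to 4000 bases held a match. The median log2 fold change was -0.26 over the 8 other ADAMTS genes tested and -0.16 over the 3 other MMP genes with more than 3 reads in some liver.

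The list of genes that activate or restrain matrix proteases, with plasminogen, furin and the serpins, had 19 of 21 genes tested and a median log2 fold change of -0.19, beside -0.09 over all genes tested. None had an adjusted p under 0.05. At an unadjusted p under 0.05 there were 0 higher and 1 lower, beside 1.95% and 5.97% of all genes. The lower gene was Lrp1, a receptor that takes up MMPs and their complexes with inhibitors from outside the cell. It had 16005 ± 2686 in saline and 11680 ± 1503 in LNA29 livers (SD, n = 6 each), with a log2 fold change of -0.45 ± 0.14 (SE, limma p = 0.00569, adjusted p = 0.315, exact permutation p = 0.00866) and overlap between the groups. When values beyond 1.5 SD were left out, Lrp1 had a log2 fold change of -0.51 and a limma adjusted p of 0.0494, in a setting where 217 genes of the whole table passed. Plg, which encodes the plasminogen that is cut to the MMP activator plasmin, had 169452 ± 32267 and 189923 ± 58316 (exact permutation p = 0.526), and Pzp, an inhibitor of the alpha-2-macroglobulin family, 260273 ± 78554 and 246783 ± 98944 (exact permutation p = 0.764).

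The substrates were described in 2 lists. At an unadjusted p under 0.05, 9 of 13 collagen and elastic fibre genes tested were higher and 0 lower. Among all genes tested 1.95% were higher and 5.97% lower. An adjusted p under 0.05 was held by 4 of the 13, beside 0.16% of all genes, and their median log2 fold change was 0.80 over the 13. The 4 genes were Sparc (1.51), Eln (1.93), Col3a1 (1.48) and Col4a2 (0.80), in each of which all 6 LNA29 livers lay above all 6 saline livers. Without 1 liver, between 1 and 3 genes of this list had an adjusted p under 0.05. The list was written with earlier results of these livers known, and 11 of its 14 genes (78.6%) hold a match to the miR-29 seed. Col6a3, which is among them, was not in the deposited table. Of the 4 genes, Eln, Col3a1 and Col4a2 hold a match and Sparc holds none, and Col1a2 and Col6a1 hold none either. Shorter matches to the seed were not searched. Of 12 proteoglycan and glycoprotein genes tested, which ADAMTS proteases and MMPs also cut, 1 was higher and 1 lower at an unadjusted p under 0.05. Both counts stand beside the same shares of all genes, 1.95% and 5.97%. Nid1, which encodes the basement membrane linker nidogen, had 298 ± 176 and 483 ± 103 (log2 fold change 0.87 ± 0.33 (SE), limma p = 0.016, adjusted p = 0.459, exact permutation p = 0.0346). Fn1, fibronectin, had 32882 ± 10462 and 21620 ± 6833 (log2 fold change -0.62 ± 0.24 (SE), limma p = 0.0194, adjusted p = 0.487, exact permutation p = 0.0498). Fn1 missed the unadjusted threshold without saline replicate 43 (log2 fold change -0.51) and when values beyond 1.5 SD were left out (-0.43). Vtn, vitronectin, had 191202 ± 69125 and 190504 ± 77335 (exact permutation p = 0.985). The 9 proteases and inhibitors and these substrate lists were measured in the same livers, and the difference between the lists was not tested.

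**Figure D4:**
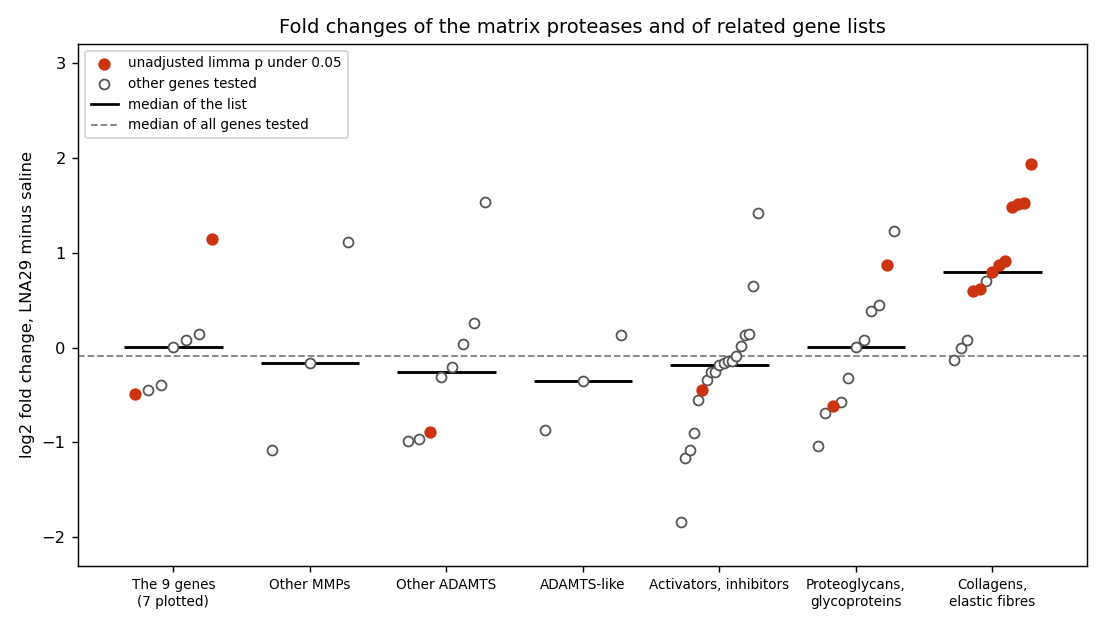
Log2 fold change (LNA29 minus saline) of each tested gene with more than 3 reads in some liver, by list, with filled points for an unadjusted limma p under 0.05, a bar for the median of the list and a dashed line for the median of all genes tested (-0.09). Of the 9 genes only Mmp2 and Mmp15 are filled, and 9 of 13 collagen and elastic fibre genes are filled and lie above 0.

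In whole tissue, a different number of cells of a type and a different amount of RNA per cell cannot be told apart. Markers of the cells that make MMPs and TIMPs were present in both groups. The summed value of 11 stellate cell markers ranged from 16100 to 26971 in the saline group and from 17902 to 28962 in the LNA29 group, a log2 difference of 0.00 (exact permutation p = 1). The 8 markers of portal fibroblasts and smooth muscle summed to between 516 and 2737 and to between 475 and 1566 (exact permutation p = 0.771), and the 10 endothelial markers to between 7000 and 8363 and to between 6195 and 8096 (log2 difference -0.15, exact permutation p = 0.0714). The 9 markers of Kupffer cells and macrophages summed to between 9891 and 15614 and to between 8821 and 19288 (exact permutation p = 0.74). Of these 9, Marco alone passed an unadjusted limma p under 0.05, as 7.91% of all genes did. The sums of markers of bile duct cells, leukocytes and red blood cells had log2 differences of -0.15, -0.32 and 0.01 (exact permutation p = 0.0909, p = 0.279 and p = 0.974). Each marker gene found in the table had reads in at least 1 liver, and the part of cell numbers in the values of Mmp2 and Mmp15 was not tested.

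The genes most like Mmp15 and Mmp14 over the 12 livers were sought among 8989 genes with a mean of at least 100, by Pearson correlation of log2 values. For Mmp15, which had the smallest limma p of the 8 genes tested, they were Dio1 (r = 0.92, Spearman rho 0.87), 0610009O20Rik (r = 0.91, rho 0.76) and Taco1 (r = 0.89, rho 0.79). All 3 had a negative log2 fold change, as Mmp15 had, so that these values hold the difference between the groups. For Mmp14, which had the highest mean, they were Nsmce1 (r = 0.90, rho 0.52), Vasn (r = 0.87, rho 0.87) and Fam174b (r = 0.85, rho 0.15). Nsmce1 and Fam174b were far less like Mmp14 in rank order than in r, and Mmp14 had a single low value in saline replicate 43. These values are descriptions from the same 12 libraries, with no test.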

How the data were processed

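RNA with poly(A) tails from 6 saline and 6 LNA29 livers was sequenced as single reads. The authors used MapSplice2 for mapping and RSEM for quantification, and deposited signal values scaled to an upper quartile of 1000, a gene without reads being set to 1. The labels' processing notes name mm9, and tool versions and the gene annotation are not given in the sources used here. Columns that hold the authors' means, fold changes and p-values were not used, nor were 3 unnamed value columns. Of the values in each liver, 91.9% to 93.7% were whole multiples of 1 read (tolerance 0.02).

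The 12486 genes whose mean was 10 or more were tested on the log2(value + 1) scale with limma 3.58.1 (trend option, R 4.3.3). Its p-values were adjusted by Benjamini-Hochberg with a threshold of 0.05. Single genes were also given a two-sided exact permutation test, whose smallest p is 0.00216. With few reads, a log2 fold change rests in part on livers set to 1 and can differ in size and sign from the ratio of the means, and none is given where no liver had more than 3 reads. Alternatives were pseudocounts of 0.1 and 10, other filters and scalings, a robust fit, array weights, leaving out values beyond 1.5 SD, edgeR 4.0.16 or DESeq2 1.42.0 with recovered reads rounded to whole numbers, and leaving out each liver. Sums over overlapping genes were added after the data were seen.

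Members and lists were chosen with earlier results of these data known. From each other list, genes with an unadjusted limma p under 0.05 and a mean of at least 50 were named (at most 6), with the 2 of highest mean. Named outside this rule, after their values were seen, were Mmp1a, Mmp10, Mmp13, Adamts15 and Marco. Single stellate cell markers are not reported here. Symbols of the lists not found in the table were Col6a3, Adgre1, Hba-a1 and Hbb-b2. In simulated livers of this design, limma recovered 31 of 91 genes changed by 1 and 98 of 109 changed by 2 on the log2 scale, with 6 false calls among 135. The changed genes were drawn from those with a mean of at least 100, and every gene had the same spread setting. These shares are therefore not the rate for a single member or for genes on few reads. Seed matches were read from GRCm38, which is not the build in the labels. Other steps ran in Python 3.11.15 (numpy 2.4.6, pandas 2.3.3, scipy 1.17.1).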

Additional observations from a re-analysis of the deposited data

Results flagged for a closer look

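Of 26 groups of 6 livers examined, 2 held a liver whose distance to the nearest other liver was large against the range of its group, where chance gives about 1 in 20. Mmp14 in saline replicate 43 was 1500, on 96 reads, whereas the other saline livers lay between 2706 and 2930. The sum of Timp3 and Syn3 in saline replicate 49 was 900, on 90 reads, whereas the other saline livers lay between 193 and 438. Saline replicate 49 was also the liver with the lowest share of albumin reads (35.7%) and the highest value of Mmp19 (2464) and of Mmp15 (1100). Its part in these values was not tested.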

How the results depend on the processing

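In 12 settings other than leaving out a liver, 0 members had an adjusted p under 0.05 and between 2 and 3 an unadjusted one. Log2 fold changes that turned were that of Mmp14, -0.057 when values beyond 1.5 SD were left out, and that of Timp3, 0.14 with array weights and 0.30 summed with Syn3. Mmp19 summed with Tmem198b had -0.35 and passed an unadjusted limma p (exact permutation p = 0.0433). Of the 43 other family genes, 2 in place of 1 passed an unadjusted p with a pseudocount of 10, no filter, a common median, TMM factors or values beyond 1.5 SD left out, and 0 with DESeq2. Of the protease control genes, 2 passed with no filter and 3 with values beyond 1.5 SD left out. Counting 8-mer matches alone left 1 member with a site in place of 2. The cause of these changes was not tested.

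Without 1 liver, 2 to 3 members passed an unadjusted p, the 3rd being Mmp19 without saline replicate 47 (log2 fold change -0.51). Other family genes numbered 0 to 2, with 0 without saline replicate 49 or LNA29 replicates 44, 46, 52 or 54, and 2, Adamts10 and Adamts15, without saline replicates 51 or 53 or LNA29 replicates 48 or 50. Protease control genes numbered 1 to 3, with 2 without saline replicate 45 or LNA29 replicates 44 or 46 and 3 without LNA29 replicate 54. Log2 fold changes lay between -0.51 and -0.24 for Mmp19, -0.0074 and 0.19 for Mmp14, -0.79 and 0.0016 for Timp3 and -0.29 and 0.28 for Adamts1, which turned in 7 of 12 fits. Mmp14 minus Timp2 lay between -0.14 and 0.15, below 0 without saline replicate 43 or LNA29 replicate 50. Genes of the whole table with an adjusted p under 0.05 numbered 20, and 217 with values beyond 1.5 SD left out, 58 with array weights, 72 with DESeq2, and 1 without saline replicate 43, LNA29 replicate 50 or LNA29 replicate 54.

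No paired analysis was possible because the 2 groups share no replicate number. Mmp2, Timp3, Adamts1 and Adamts9 rest on few reads, and depth limits what can be said of them. Whether the samples differ in library batch is not given in the labels.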
